A study of Homo sapiens with 10 samples.

Results

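A set of 10 genes for inflammatory chemokines and cytokines was followed across human prostate cancer cells: the chemokines CCL20, CXCL1, CXCL2, CXCL3, CXCL5 and CXCL8, and the cytokines IL1A, IL1B, IL6 and LIF. They were 10 of the 19775 genes that had a probe set of their own on the arrays. The list was drawn up around CCL20, which had been picked for its low level in DU145 cells carrying the EOS reporter, and the question was whether other inflammatory genes were low with it. The list was thus chosen by the EOS against PGK values of DU145, which are given below as a description with no test for these genes. Each gene is read from its probe set of highest mean among those annotated to it alone.

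Chemokines are small secreted proteins that draw leukocytes towards the cells that make them. CCL20 acts through the receptor CCR6 on lymphocytes and dendritic cells, whereas the CXCL members listed here act through CXCR2, and CXCL8 also through CXCR1, to attract neutrophils. Epithelial and tumour cells make both kinds after IL-1, TNF or IL-17 signals, largely through the transcription factor NF-kB, and their short-lived mRNAs are removed through AU-rich elements. IL1A and IL1B are alarm cytokines that switch on the same genes, and IL6 and LIF signal through the shared receptor chain IL6ST (gp130) to STAT3.

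RNA came from 2 established prostate cancer lines, DU145, which grows without androgen, and LNCaP, which responds to it. Control cells carried GFP and puromycin resistance driven by the ubiquitous PGK promoter. EOS cells carried the same genes under enhancers of OCT4 and SOX2 and were enriched by some weeks in puromycin, as a resistant population and not as a single clone per the labels' protocols. In each line PGK and EOS cells were measured on 2 arrays each, numbered 1 and 2, and EOS cells number 2 once more after ribavirin, a guanosine analogue whose dose and time the sources used here do not state. That made 10 arrays in 6 groups. Nothing in the labels ties numbers 1 and 2 to separate transductions, so p-values describe the spread of the arrays alone, and that may be technical.

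The deposited intensities were scaled so that each array had a 2% trimmed mean of 500, and "scaled intensity" below is that linear value. The median of all probe sets was then 53.6 to 71.3 on the 10 arrays, and a value under its array's median is called dim. Differences are of log2(scaled intensity + 16), a scale whose floor is 4 and which understates changes of dim genes. Arrays numbered 1 and 2 differed in the deposited scale (trimmed means of 500 against 96.6 to 126.5) and in the 3' to 5' ratio of ACTB, at 1.24 to 1.51 against 3.20 to 3.99, so values are also given within each number. On principal component 2 (8.14% of the variance) the LNCaP arrays split by number, at 46.5 and 48.0 for number 1 and -37.4 to -21.2 for number 2. One array, LNCaP PGK number 2, lay far from the rest on principal component 3 (4.21% of the variance), at -53.4, with all other arrays from -11.9 to 21.0. The LNCaP difference of CCL20 and the members' calls between the lines are given without it too. Summed scaled intensity of the epithelial markers KRT8, KRT18, EPCAM and CDH1 was 12140 to 22410 in DU145 and 50300 to 56290 in LNCaP. KLK3 and TMPRSS2, which mark prostate luminal cells, summed to 41.7 to 56.9 in DU145 and were dim on all 5 of its arrays, against 36560 to 50570 in LNCaP.

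The windows upstream of the 6 chemokine genes are shown so that the letters before CCL20 can be set beside those before the CXC genes. Each is the 250 bases before the gene's start, 5' to 3' on the gene's strand, from RefSeq on GRCh38.p14. Capitals mark matches to the 10-letter NF-kB consensus or to the AP-1 motif TGANTCA, both strands searched. Of the 10 genes, 9 had a window in the table, and LIF had none.
CCL20, chr2:227813592-227813841, plus strand: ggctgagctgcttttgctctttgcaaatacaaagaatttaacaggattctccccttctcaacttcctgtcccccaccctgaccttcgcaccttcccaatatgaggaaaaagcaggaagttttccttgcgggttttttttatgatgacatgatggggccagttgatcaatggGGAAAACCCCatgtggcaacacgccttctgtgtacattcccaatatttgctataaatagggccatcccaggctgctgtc
CXCL1, chr4:73869143-73869392, plus strand: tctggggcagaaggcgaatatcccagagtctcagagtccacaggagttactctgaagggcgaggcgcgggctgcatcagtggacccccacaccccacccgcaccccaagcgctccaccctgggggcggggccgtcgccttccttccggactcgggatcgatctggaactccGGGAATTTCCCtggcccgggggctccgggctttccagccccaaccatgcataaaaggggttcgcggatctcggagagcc
CXCL2, chr4:74099196-74099445, minus strand: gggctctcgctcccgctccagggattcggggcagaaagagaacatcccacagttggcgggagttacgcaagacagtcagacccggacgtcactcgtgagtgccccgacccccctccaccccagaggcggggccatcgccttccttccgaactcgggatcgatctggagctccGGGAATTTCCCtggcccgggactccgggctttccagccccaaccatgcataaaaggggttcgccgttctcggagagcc
CXCL3, chr4:74038690-74038939, minus strand: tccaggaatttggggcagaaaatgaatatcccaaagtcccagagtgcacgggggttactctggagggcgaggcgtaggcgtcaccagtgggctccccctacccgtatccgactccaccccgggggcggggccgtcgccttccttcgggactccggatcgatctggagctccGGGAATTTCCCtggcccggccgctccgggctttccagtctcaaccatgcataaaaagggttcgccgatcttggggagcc
CXCL5, chr4:73998678-73998927, minus strand: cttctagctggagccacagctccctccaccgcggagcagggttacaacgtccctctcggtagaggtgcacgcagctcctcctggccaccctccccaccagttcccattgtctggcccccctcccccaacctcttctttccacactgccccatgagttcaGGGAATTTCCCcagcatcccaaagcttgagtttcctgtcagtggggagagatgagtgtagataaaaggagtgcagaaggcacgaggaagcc
CXCL8, chr4:73740319-73740568, plus strand: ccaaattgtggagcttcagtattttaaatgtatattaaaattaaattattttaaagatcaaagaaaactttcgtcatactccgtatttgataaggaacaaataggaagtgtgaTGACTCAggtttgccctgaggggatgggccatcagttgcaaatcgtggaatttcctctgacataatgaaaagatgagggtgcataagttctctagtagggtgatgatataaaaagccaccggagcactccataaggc
CCL20 had 1 NF-kB match, 79 to 70 bases before its start. CXCL1, CXCL2 and CXCL3 had the sequence GGGAATTTCC, with an overlapping match on the other strand, at 79 to 70, 78 to 69 and 79 to 70 bases before their starts. CXCL5 had the same letters at 91 to 82. CXCL8 had no full match to this consensus in the window, where the letters tggaatttcc miss it only by their first letter. It had 1 AP-1 match, TGACTCA, at 137 to 131. Among the other members, IL6 had an NF-kB match (GGGATTTTCC, 73 to 64), IL1A an AP-1 match (12 to 6) and IL1B neither. Of all 35116 windows of this length, 9.96% held the NF-kB consensus and 6.57% the AP-1 motif. The 5 CXC genes lie together on chromosome 4. The matches are letters only, and no factor's binding was measured.

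In DU145, CCL20 was far lower in EOS cells than in PGK cells on both array numbers, and the other 9 genes were not. Scaled intensity of CCL20 was 726.8 and 383.4 in the PGK arrays numbered 1 and 2, and 55.1 and 10.1 in the EOS arrays. Both EOS arrays were thus dim for CCL20 and both PGK arrays were well above their medians. The difference was -3.66 on the log2 scale, with -3.39 within number 1 and -3.94 within number 2, a 12.7-fold lower level. The replicate SD was 0.85 (n = 2 arrays per group). Because the EOS values were dim, the size depended on the pseudocount, from -4.41 with 1 to -2.66 with 64. Among the other 9 genes the difference ran from -0.41 (CXCL1) to 0.76 (IL1B).

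**Figure D1:**
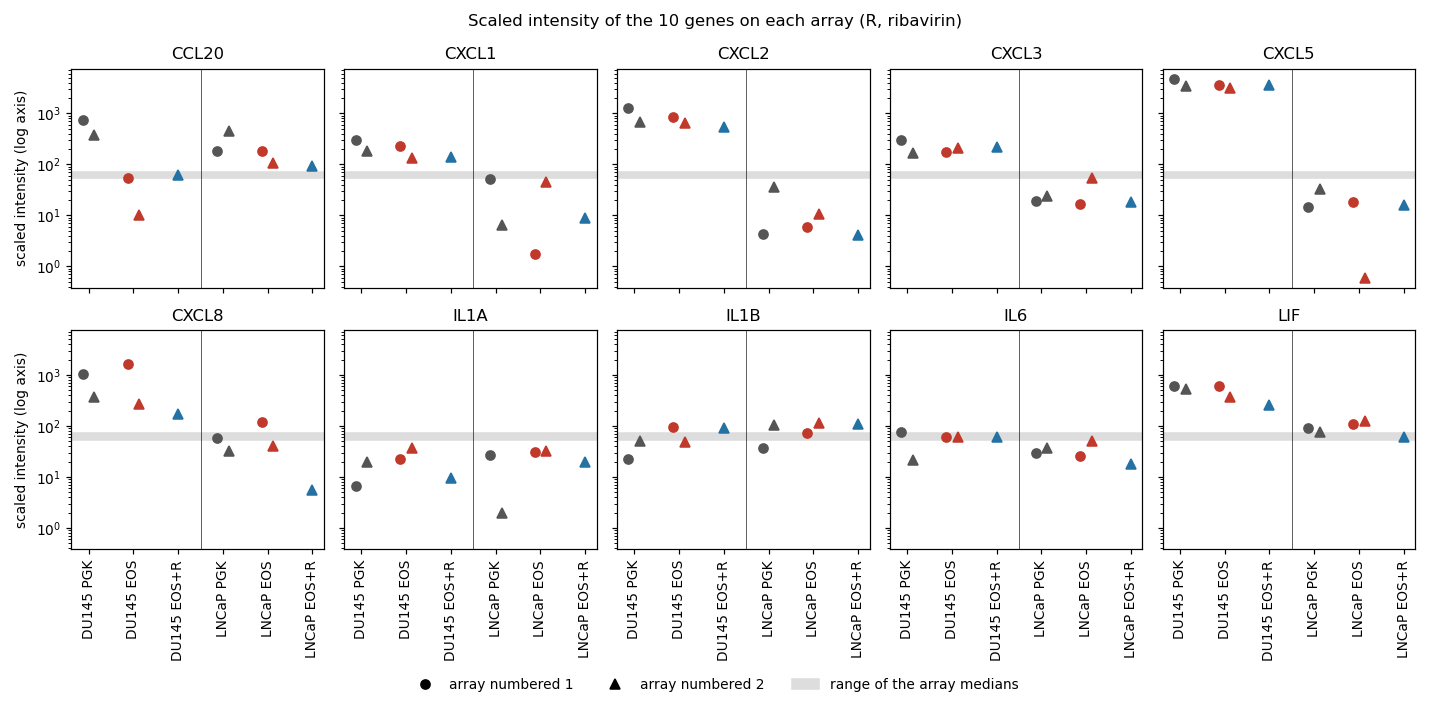
Scaled intensity (log axis) of each gene on every array, by group. Circles are arrays numbered 1, triangles those numbered 2, and the grey band spans the medians of the arrays, 53.6 to 71.3. CCL20 lies in or below the band in DU145 EOS cells, while CXCL1, CXCL2, CXCL3, CXCL5, CXCL8 and LIF stay above it on all 5 DU145 arrays.

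CXCL1, CXCL2 and CXCL3 encode the GRO chemokines, near-identical proteins first named for growth-regulated oncogene. CXCL1 was at 305.5 and 180.9 in DU145 PGK cells and at 227.0 and 131.1 in EOS cells. Its difference, -0.41, was nearly the same within each number (-0.40 and -0.42). It was smaller than the replicate SD of 0.51, but that SD is the gap between numbers 1 and 2, which differences within a number leave out. CXCL2 was at 1273 and 688.4 against 856.3 and 634.0, and CXCL3 at 298.7 and 169.4 against 172.1 and 206.1. EOS and PGK values overlapped for all of these. The probes of such close paralogs may share transcripts, so their separate values are uncertain. The differences were -0.34 for CXCL2 and -0.24 for CXCL3, and CXCL3 was higher in EOS cells within number 2, at 0.26.

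The neutrophil chemokine CXCL5 was bright in every DU145 array, at 4808 and 3355 in PGK cells and 3583 and 3164 in EOS cells, a difference of -0.25. CXCL8, interleukin 8, was split by array number rather than by vector. It was at 1030 and 1611 in the PGK and EOS arrays numbered 1 and at 376.9 and 267.3 in those numbered 2. EOS cells were higher within number 1, at 0.64, and lower within number 2, at -0.47, so the mean of 0.08 describes neither. Its second probe set gave 0.02.

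The interleukins were dim on most DU145 arrays. IL1B was at 22.8 and 49.7 in PGK cells and 97.5 and 48.3 in EOS cells, and its other probe set gave -0.12 where the one used gave 0.76, so no direction can be read. IL1A was dim on all 10 arrays, at 6.68 and 19.3 against 22.3 and 36.6, and was the only member whose EOS values all lay above its PGK values in DU145. IL6 was at 76.9 and 21.6 against 61.5 and 60.2. LIF, an IL-6 family cytokine with a role in stem cell culture, was at 611.5 and 526.3 in PGK cells and at 608.5 and 369.5 in EOS cells, a difference of -0.25.

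Of the 10 genes, 1 (CCL20) had EOS values wholly below the PGK values in DU145 and 1 (IL1A) wholly above them. Among all 14313 genes tested, 16% lay wholly below and 13.2% wholly above in that comparison. The median difference of the 10 was -0.25, or -0.24 without CCL20, against -0.02 over all genes. A lower EOS mean was seen in 6 of 10 genes and in 52.8% of all genes. It was seen in 3 of 10 members without the PGK array numbered 1, and in 8 of 10 without the PGK array numbered 2. The EOS array was lower within both numbers for 5 members (26.5% of all genes) and higher within both for 1 (23.4%). As this contrast chose the list, nothing is read from these shares. limma called 0 of all genes there (0%) at an adjusted p under 0.05, and 226 had an unadjusted p under 0.05 (1.58%), or 480 with the replicate block (3.35%).

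**Figure D2:**
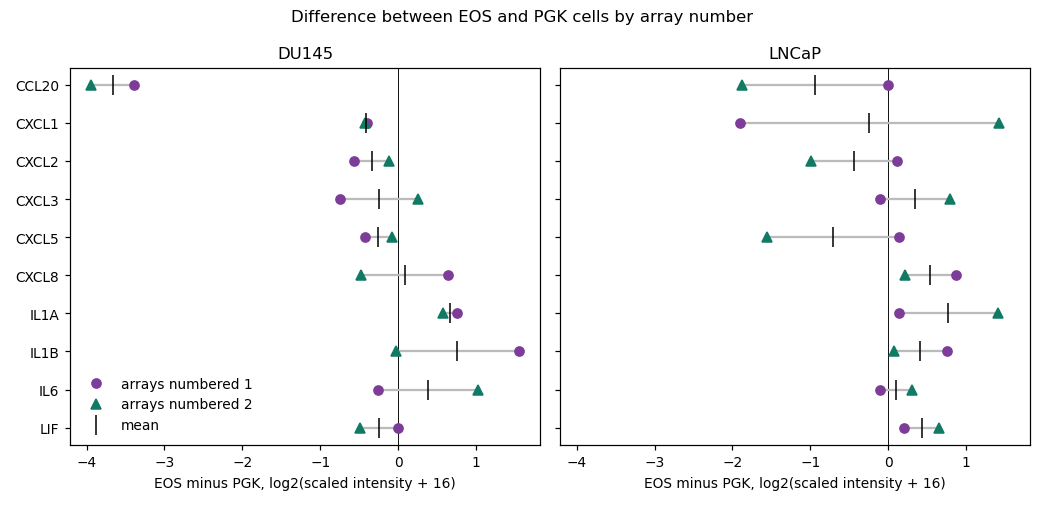
EOS minus PGK difference of each gene in log2(scaled intensity + 16), in DU145 and LNCaP. Circles are the arrays numbered 1, triangles those numbered 2 and the black tick their mean. In DU145 CCL20 lies at -3.39 and -3.94, apart from the other 9 genes, whose means run from -0.41 to 0.76.

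Markers of other cell types were set beside the CCL20 values. The 6 leukocyte markers measured (PTPRC, CD3E, CD14, ITGAM, TYROBP and CSF1R) summed to 161.7 to 207.4 in DU145 PGK arrays and 226.0 to 271.6 in EOS arrays, with at most 2 of 6 above the array median in either group. The 7 fibroblast markers summed to 468.5 and 447.3 in the PGK and EOS arrays numbered 1 but to 780.2 and 2855 in those numbered 2. POSTN, a matrix protein, was at 31.9 and 91.8 in the arrays numbered 1 and at 135.0 and 1730 in those numbered 2. COL3A1 was at 36.3 and 500.8 in those numbered 2, and the larger sum there came mainly from POSTN and COL3A1. Within number 2, DCN and LUM were also higher in EOS cells, whereas COL1A1 (488.0 and 476.5), COL1A2 and PDGFRB were lower. The 4 epithelial markers were lower in EOS cells, with sums of 22410 and 15560 in PGK and 15870 and 12290 in EOS arrays and 4 of 4 differences below 0 (median -0.93, 0 called by limma). The part of these markers in the CCL20 difference was not tested. None of the leukocyte markers was at 0, and PTPRC, the pan-leukocyte marker, was dim on all 5 DU145 arrays, at 3.85 to 49.5. Fewer cells expressing CCL20 and less RNA per cell cannot be told apart in such bulk RNA.

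In LNCaP, which did not enter the choice of the list, no member passed the test between EOS and PGK cells. CCL20 was at 179.9 and 441.1 in PGK cells and at 179.5 and 108.4 in EOS cells. The arrays numbered 1 were level, and the difference lay between those numbered 2. It came to -0.94 ± 0.60 (limma SE, n = 2 arrays per group, limma adjusted p = 0.999), with -0.00 within number 1 and -1.88 within number 2. Without the PGK array numbered 2, the one that stood apart, the difference was -0.33. With each of the 8 PGK and EOS arrays left out in turn it ran from -1.55 to -0.33. EOS values lay wholly below PGK values for CCL20, though only just (179.5 against 179.9), as in 10.6% of all genes.

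The GRO chemokines and CXCL5 were dim on all 5 LNCaP arrays, and their differences there compare values near the floor. CXCL1 ranged from 1.78 to 50.6, CXCL2 from 4.07 to 36.8, CXCL3 from 16.4 to 53.4 and CXCL5 from 0.601 to 32.9. CXCL8 was at 59.0 and 32.5 in PGK cells and 120.9 and 40.2 in EOS cells, higher within both numbers (0.87 and 0.21) at 0.54 ± 0.83 (limma adjusted p = 0.999). LIF was above the median on all 5 arrays, at 92.4 and 74.9 in PGK cells and 108.8 and 126.9 in EOS cells. Its EOS values lay wholly above the PGK values, as in 18.0% of all genes, and the difference was 0.43 ± 0.32 (limma adjusted p = 0.999). IL1A also lay wholly above, at 31.6 on both EOS arrays against 27.2 and 1.99. IL1B was at 36.4 and 105.8 against 72.1 and 112.7, and IL6 at 29.3 and 37.4 against 26.1 and 50.3.

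In LNCaP, EOS means were lower for 4 members (44.0% of all genes). The EOS array was lower within both numbers for 1 member (22.9%) and higher within both for 4 (32.9%). Of the 10 members 8 passed the filter on dim probe sets and were tested in LNCaP, and 0 were called, as were 0 of all 14313 genes (0%). At an unadjusted p under 0.05 limma had 0 of the 8 members and 596 of all genes (4.16%). With a replicate block it had 1297 (9.06%) and also called 0 genes. IL1A and IL6 did not pass the filter. With no filter all 10 were tested and 0 were called. The median difference of the 10 was 0.22, against 0.05 over all genes.

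Between the lines, among PGK cells, the neutrophil chemokines and LIF were lower in LNCaP, whereas CCL20 was not among the genes that passed. CXCL5 was at 4808 and 3355 in DU145 and at 14.7 and 32.9 in LNCaP, with no overlap between any of the 10 arrays of the 2 lines. The difference was -6.70 ± 0.40 (limma SE, n = 2 arrays per line, limma adjusted p = 1.09e-05). Its second probe set, at 575.2 to 1434 over the 5 DU145 arrays and 1.51 to 15.8 over the LNCaP arrays, showed the same split. The remaining probe set was dim on all but 2 arrays, and there the lines overlapped, at 28.2 to 82.5 in DU145 and 1.69 to 32.1 in LNCaP. CXCL2 was at 1273 and 688.4 against 4.39 and 36.8, a difference of -4.86 ± 0.51 (limma adjusted p = 2.01e-04). Its other probe sets were dim on all 10 arrays, in DU145 too, so the level of CXCL2 rests on 1 probe set. The names of the sets used for CXCL2, CXCL5 and CXCL8 mark probes that can match related transcripts.

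CXCL3 was at 298.7 and 169.4 in DU145 and at 18.9 and 24.1 in LNCaP, a difference of -2.69 ± 0.48 (limma adjusted p = 0.00324). LIF was at 611.5 and 526.3 against 92.4 and 74.9, and its difference of -2.56 ± 0.32 was alike within the numbers, at -2.53 and -2.58 (limma adjusted p = 5.54e-04). CXCL8 was at 1030 and 376.9 against 59.0 and 32.5, a difference of -3.41 ± 0.83 (limma adjusted p = 0.0140). CXCL1 was at 305.5 and 180.9 against 50.6 and 6.56, a difference of -2.70 ± 0.72 (limma adjusted p = 0.0204). For these 2 genes the call depended on single arrays. Without the LNCaP PGK array numbered 2 the limma adjusted p was 0.0645 for CXCL8 and 0.106 for CXCL1. Without the DU145 PGK array numbered 1 it was 0.109 and 0.129. Without the DU145 PGK array numbered 2 it was 0.0637 for CXCL1. CXCL2, CXCL3, CXCL5 and LIF passed with each of the 8 PGK and EOS arrays left out in turn. On the deposited intensities without scaling, where each group mixes both scales, none of the 6 genes passed (differences from -6.28 to -2.05, limma adjusted p from 0.0543 to 1.00).

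CCL20 was at 726.8 and 383.4 in DU145 and at 179.9 and 441.1 in LNCaP, so the lines overlapped. The difference was -0.86 ± 0.60 (limma adjusted p = 0.313), with -1.92 within number 1 and 0.19 within number 2. This comparison uses the DU145 PGK arrays that were high when CCL20 was picked. IL1B had a difference of 0.66 ± 0.55 (limma adjusted p = 0.402). Of the 8 tested members 6 were lower in LNCaP past the threshold, where 17.9% of all genes were, and 33.1% were called in either direction. CXCL1, CXCL2, CXCL3 and CXCL5 passed the filter through DU145 arrays alone, which favours a lower value in LNCaP. The count of 6 of 8 is thus no support for a shift of the list. With no filter, 6 of all 10 members passed, against 4397 of 19775 genes. The sizes are bounded by the floor in LNCaP: with a pseudocount of 1 and of 64, CXCL5 gave -7.45 and -5.55 and CXCL2 gave -6.04 and -3.59.

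**Figure D3:**
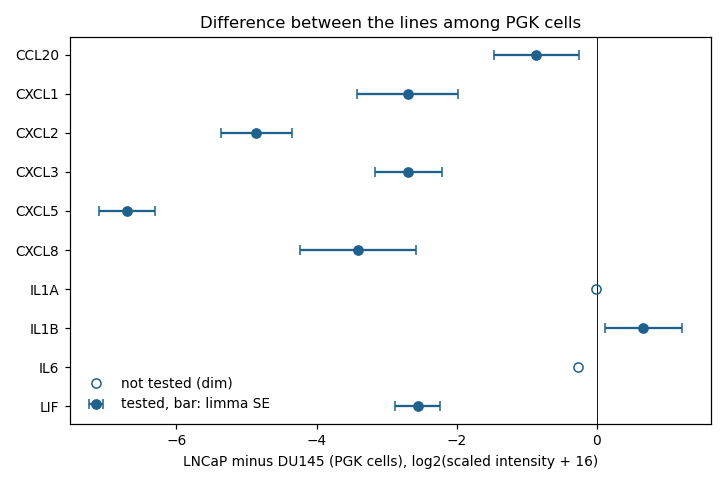
Difference between LNCaP and DU145 PGK cells for each gene, in log2(scaled intensity + 16). Filled points are genes tested, with bars of 1 limma SE, and open points are the dim genes IL1A and IL6. CXCL5 lies at -6.70 and CXCL2 at -4.86, while CCL20 lies at -0.86.

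As a description over the 6 groups, mean log2 of CCL20 was 9.09 ± 0.63 (SD, n = 2) in DU145 PGK, 8.23 ± 0.86 in LNCaP PGK, 7.29 ± 0.46 in LNCaP EOS, 6.77 in the single LNCaP ribavirin array, 6.29 in the single DU145 ribavirin array and 5.43 ± 1.02 in DU145 EOS. With so few arrays per group, and no SD for the single arrays, neighbours in this order are not told apart. The ends of the order are the groups for which CCL20 was picked. For CXCL1, CXCL2, CXCL3, CXCL5, CXCL8 and LIF, every DU145 array lay above every LNCaP array. The share of all genes that split this way was not counted, so nothing is read from the number of members. Of all genes, 33.1% were called between the lines among PGK cells. CXCL1, CXCL2, CXCL3 and CXCL5 passed the filter through DU145 arrays alone.

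Ribavirin-treated EOS cells had 1 array per line, taken to vary like the other groups, and no member passed against the EOS arrays. In DU145 CCL20 was at 62.3 after ribavirin, against 55.1 and 10.1 in EOS cells. The difference of 0.86 ± 0.74 (limma adjusted p = 1.00) is set against EOS arrays that were low when CCL20 was picked, and it was 1.59 against EOS number 2 alone. In LNCaP CCL20 was at 93.2 against 179.5 and 108.4, a difference of -0.51 ± 0.74, or -0.19 against number 2 alone.

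CXCL2, CXCL8 and LIF had their lowest value of each line in the ribavirin array, though CXCL2 was dim throughout LNCaP. CXCL8 was at 174.5 in DU145, against 1611 and 267.3 in EOS cells, and at 5.52 in LNCaP, against 120.9 and 40.2. The differences were -1.83 ± 1.02 and -2.03 ± 1.02 (limma adjusted p = 1.00 and 0.999), and -0.57 and -1.39 against EOS number 2, the array of the treated cells. LIF was at 260.4 in DU145, against 608.5 and 369.5, and at 59.9 in LNCaP, against 108.8 and 126.9. Its differences were -0.83 ± 0.39 and -0.81 ± 0.39 (limma adjusted p = 1.00 and 0.999), and -0.48 and -0.91 against EOS number 2. The second probe set of CXCL8 was at 6.53 in the DU145 ribavirin array, also the lowest of that line, but in LNCaP at 10.98 it lay between its EOS values of 42.1 and 3.94. CXCL2, CXCL8 and LIF were singled out after their values were seen, and the share of all genes with such a pattern was not counted. The ribavirin arrays are of cells number 2, and CXCL8 was lower in number 2 than in number 1 for PGK and EOS cells of both lines.

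The other CXC members did not share one direction after ribavirin in DU145. CXCL5 was at 3520, between its EOS values of 3583 and 3164. CXCL3 was at 217.4, just above 172.1 and 206.1, CXCL2 at 542.9, below 856.3 and 634.0 (-0.43 ± 0.62, limma adjusted p = 1.00), and CXCL1 at 140.5, within its EOS range. In LNCaP these 4 stayed dim, with CXCL2 at 4.07 against 6.03 and 10.6 in EOS cells. IL1B was at 89.7 in DU145 and 109.8 in LNCaP, both within the range of the EOS values. IL1A was dim at 9.41 in DU145 and 20.0 in LNCaP, and IL6 at 62.0 and 17.9. Against the EOS mean, 5 of 10 members were lower after ribavirin in DU145 (43.7% of all genes). In LNCaP 8 of 10 were (51.5%), and each count rests on 1 ribavirin array. limma called 0 of 14313 genes (0%) in either line, with 250 (1.75%) in DU145 and 289 (2.02%) in LNCaP at an unadjusted p under 0.05, and 0 of the 8 tested members. The fibroblast sum was 3199 and the leukocyte sum 352.1 in the DU145 ribavirin array, against 2855 and 271.6 in EOS number 2. Most of the fibroblast sum was POSTN, at 2020 and 1730 in these 2 arrays. The part of these markers in the members' values was not tested.

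**Figure D4:**
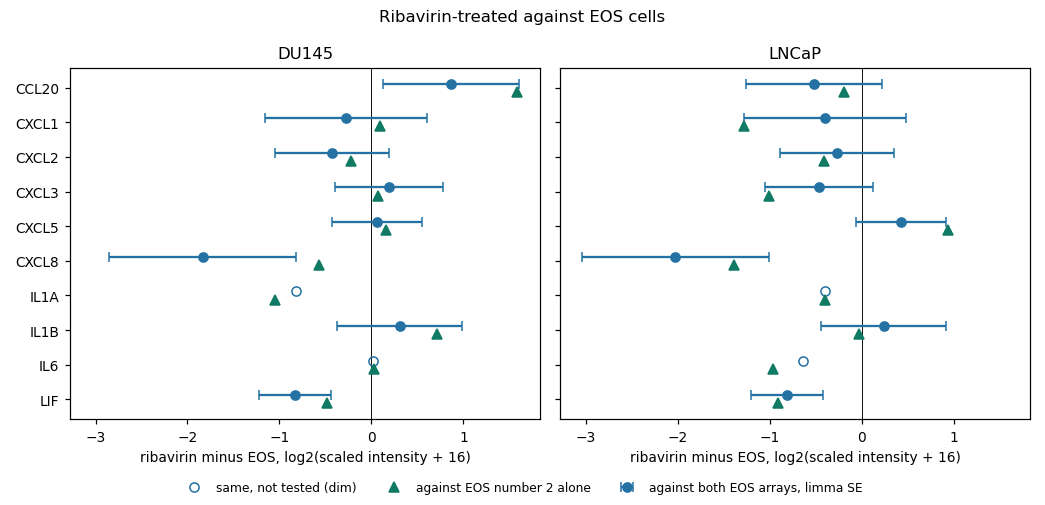
Ribavirin minus EOS difference of each gene in log2(scaled intensity + 16), in DU145 and LNCaP. Circles compare with both EOS arrays (bars, 1 limma SE; open, dim genes not tested) and triangles with EOS number 2 alone. LIF lies at -0.83 and -0.81 and CXCL8 at -1.83 and -2.03, where the triangles of CXCL8 are nearer 0, at -0.57 and -1.39.

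The rest of the pathway was read from 7 lists with 90 genes, of which 85 had a probe set of their own and 67 were tested. In DU145, 0 of the 67 passed between EOS and PGK cells, and 1 had an unadjusted limma p under 0.05, the kinase IKBKE at 0.64 ± 0.27 (limma adjusted p = 1.00). With the replicate block 3 had one and 0 passed. The 1 gene found without the block was 1.49% of the 67, against 1.58% of all genes. Of the 67, 42 lay below 0 (62.7%, against 52.8% of all genes). Their differences were small beside that of CCL20, which was picked for its low value in this comparison. The NF-kB list of subunits, kinases, inhibitors and feedback targets had a median of -0.04 over 21 genes, 13 of them below 0. Its second gene by p was CYLD, a deubiquitinase that restrains NF-kB signalling, at -0.49 ± 0.23. NFKBIA, the inhibitor that NF-kB itself induces, was at -0.04 ± 0.32 and RELA, its main activating subunit, at -0.05 ± 0.21.

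Receptors had a median of -0.08 over 7 genes in that comparison, 6 of them below 0, and IL17RA, a receptor chain for IL-17, was at -0.40 ± 0.22. CCR6 and both CXCR genes were among the 5 of 12 receptors that did not pass the filter. The 11 other chemokines and cytokines tested had a median of -0.04, and CXCL6, another CXCR2 ligand beside CXCL5, was at -0.00 ± 0.53. IL-1 processing genes had a median of 0.08 (5 genes), decay factors of AU-rich mRNA 0.03 (6 genes), other transcription factors -0.21 (8 genes) and the IL-6 family list -0.14 (9 genes). STAT3 was at -0.39 ± 0.20 and SOCS3, the feedback inhibitor of this pathway, at -0.69 ± 0.47. None of these passed (limma adjusted p = 1.00 for each). IKBKE, CYLD, NFKBIA, RELA, IL17RA, STAT3, CXCL6 and SOCS3 were named here after their values were seen, as were the 3 LNCaP genes and the 2 ribavirin genes below.

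In LNCaP, 0 of the 67 passed between EOS and PGK cells, 3 had an unadjusted limma p under 0.05 (4.48%, against 4.16% of all genes) and 48 lay above 0 (71.6%, against 56.0%). The 3 were TSLP at 1.74 ± 0.75 (0.13 within number 1 and 3.35 within number 2), CYLD at 0.57 ± 0.23 and ZFP36, which triggers decay of AU-rich mRNA, at 0.85 ± 0.32 (limma adjusted p = 0.999 for each). With ribavirin 0 passed and 1 of 67 had an unadjusted p under 0.05 in each line (1.49%, against 1.75% of all genes in DU145 and 2.02% in LNCaP), ATF3 at 0.71 ± 0.29 in DU145 (limma adjusted p = 1.00) and CCL28 at -1.39 ± 0.60 in LNCaP (limma adjusted p = 0.999).

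Between the lines the same lists held many called genes, 26 lower and 5 higher in LNCaP of 67, where 17.9% and 15.2% of all genes were called. Of the 26, 6 were dim on all 5 LNCaP arrays (SOCS3, IL18, CXCL6, IL11, TRAF1 and FOSL1). These 6 passed the filter through DU145 alone, which favours a lower value in LNCaP, and their sizes are limited by the floor there. The other 20 were not dim on all LNCaP arrays, as was so for 2058 of the 14313 genes tested. The lists were chosen with earlier results of these data known, so the counts are no support for a shift of the lists. The replicate block gave each line its own shift between array numbers, so its difference between the lines is the one fitted at number 1. In that fit TRAF1, RELA and CXCL16 were not called (limma adjusted p = 0.0954, 0.0509 and 0.0870). In IL-6 family signalling 5 of 9 genes were lower and 0 higher. SOCS3 differed by -5.95 ± 0.47 (limma adjusted p = 4.75e-05), the kinase JAK1 by -5.40 ± 0.40 (limma adjusted p = 3.30e-05), the oncostatin M receptor OSMR by -5.01 ± 0.30 and TYK2 by -1.12 ± 0.22. Among receptors 2 of 7 were lower and 2 higher. The shared chain IL6ST differed by -2.31 ± 0.22 and IL1RAP, the partner of the IL-1 receptor, by -2.46 ± 0.45, while IL1R1 was higher by 1.67 ± 0.21 and IL6R by 1.43 ± 0.43.

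Of the 11 other chemokines and cytokines 4 were lower in LNCaP and 1 higher. IL18, an IL-1 family cytokine, differed by -6.53 ± 0.49 (limma adjusted p = 3.86e-05), CXCL6 by -3.05 ± 0.53, IL11 by -2.40 ± 0.44 and CSF1 by -2.26 ± 0.65, whereas CXCL16 was higher by 0.96 ± 0.27. In the NF-kB list 8 of 21 were lower and 0 higher, led by TNFAIP2 at -2.62 ± 0.33, TRAF1 at -1.90 ± 0.52, REL at -1.78 ± 0.26 and CYLD at -1.23 ± 0.23. Among other transcription factors 5 of 8 were lower and 2 higher. FOSL1, an AP-1 subunit, was at -3.65 ± 0.59, EGR1 at -3.21 ± 0.30, CEBPD at -2.36 ± 0.26 and CEBPB at -1.31 ± 0.29, while ATF3 was at 1.51 ± 0.24 and JUN at 1.42 ± 0.29. GSDMD, the pore protein that lets IL-1 out of cells, was at -4.11 ± 0.61 and the decay factor ZFP36 at -1.30 ± 0.32, the 1 gene called in each of their lists. All genes named in this comparison as called had a limma adjusted p under 0.05 without the block.

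**Figure D5:**
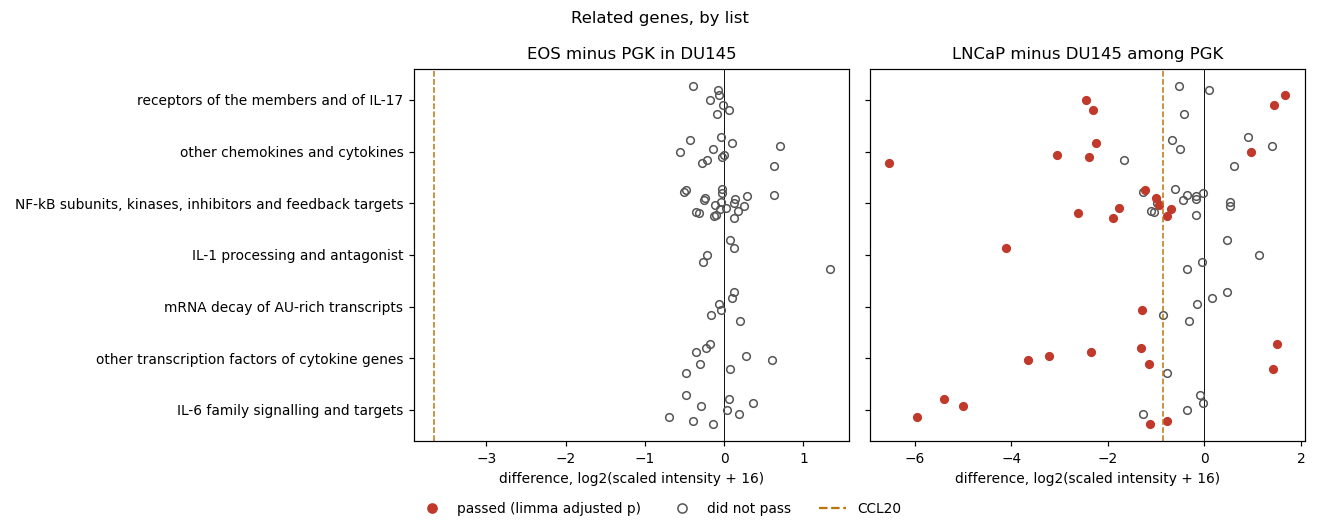
Differences of the 67 tested pathway genes in log2(scaled intensity + 16), by list, for EOS minus PGK in DU145 (left) and LNCaP minus DU145 among PGK cells (right). Filled red points passed limma and open points did not, and the dashed line marks CCL20. On the left no gene comes near CCL20 at -3.66, but CCL20 was picked for its low value there. On the right 31 of the 67 passed.

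Genes whose pattern was most like that of CCL20 were ranked by Pearson's r of log2 values, as a description over arrays that share their scaling. Over all 10 arrays the nearest were POLL (0.85), LINC00598 (0.85), PALLD (0.83), SNRNP27 (0.82) and CHEK2 (0.80). POLL, a DNA repair polymerase, was also lower in EOS cells, at -1.94 in DU145 and -0.98 in LNCaP. Over the 5 DU145 arrays the nearest were BEX5, APBA1, TMEM123-DT, ERLEC1 and VAV1, all with r of 0.99 or more. The nearest of so many genes over 5 arrays lie close to 1 by selection, and these arrays include those that picked CCL20. Among the 7 other tested members r over 10 arrays ran from -0.34 (IL1B) to 0.02 (CXCL8). Over the DU145 arrays it was 0.74 for CXCL1, 0.73 for CXCL5, 0.65 for CXCL2, 0.56 for LIF, 0.41 for CXCL3, 0.35 for CXCL8 and -0.62 for IL1B. By this r CXCL1 ranked 997, CXCL5 1070 and IL1B 12456, so many genes outside the list were more like CCL20 than any member was.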

How the data were processed

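Per the submitters' processing notes, the deposited values were made with MAS5 and affy, with no version or role. The authors deposited probe set intensity on a linear scale, and detection calls were not used here. Of 54675 probe sets, 62 array controls were left out. The platform annotation gave 1 symbol to 41097, several to 1801 and none to 11777. Each array was brought to the same 2% trimmed mean, 500, and 16 was added before taking log2. Probe sets above the array median in at least 2 of 10 arrays were kept (33451), and per gene the one of highest mean was tested, giving 14313 genes.

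limma 3.58.1 in R 4.3.3 fitted 1 mean per group (residual degrees of freedom 4, intensity trend, Benjamini-Hochberg adjustment over all genes tested, threshold 0.05), and was tested on simulated data. With 2 arrays against 2, the smallest p of an exact permutation test is 0.333. Precision is limited by how few arrays there are.

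The members and lists were chosen with earlier results of these data known. All 10 members are named. Genes named from the lists were those called, at most 4 per list and direction, with exceptions stated, and the 5 genes nearest to CCL20 by r over all arrays and over DU145. Alternatives were the pseudocount, scaling, filter, choice of probe set, trend, replicate block and leaving out each array.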

Additional observations from a re-analysis of the deposited data

Results flagged for a closer look

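LIF was lower in EOS cells than in PGK cells within both array numbers of DU145 (-0.01 and -0.49) and higher within both numbers of LNCaP (0.20 and 0.65). The EOS minus PGK difference in DU145 minus that in LNCaP was -0.68 on the log2 scale. The DU145 value within number 1 was all but 0. The difference between the lines was not tested, because the DU145 contrast chose the list.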

How the results depend on the processing

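The number of genes called between the lines was 58 on unscaled intensities, where each group mixes both deposited scales, and 2497 to 5061 with single arrays left out, against 4733. It was 2595 without DU145 PGK 1 and 2497 without DU145 PGK 2. For EOS against PGK it was 0 throughout in DU145 and 0 to 4 in LNCaP, with 3 calls without LNCaP PGK 1 and 4 without LNCaP EOS 1, none of them a member. Ribavirin against EOS gave 0 calls throughout. Members with a lower mean in DU145 EOS cells numbered 3 (without PGK 1) to 8 (without PGK 2) of 10 with single arrays left out, against 6. In LNCaP it was 3 to 6, against 4. On unscaled intensities no member passed between the lines (CXCL5 at -6.28, limma adjusted p = 0.0543), and with a pseudocount of 1 CXCL1 did not (-3.58, adjusted p = 0.0773).

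Within a line, PGK and EOS arrays sharing a number deviated from their group means with r = 0.12 (DU145) and 0.48 (LNCaP) over 14313 genes. The replicate block gave each line its own shift between array numbers. Its difference between the lines is thus the one fitted at number 1, not the mean over both numbers, and CCL20 went from -0.86 to -1.59. In that fit limma called 5162 genes between the lines, and no member's call changed. It called 0 genes between EOS and PGK cells in either line. Of the 31 pathway genes called between the lines, 3 lost the call. Others gained one (IL15, ICAM1, SOD2, IL1RN, ZFP36L1 and PIM1), which made 34. The block reversed the ribavirin difference of CXCL1 in DU145 (0.085) and of IL1B in LNCaP (-0.20).

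Other reversals were of small, uncalled differences. With EOS number 2 alone as control, ribavirin gave 0.089 for CXCL1 in DU145 and -0.033 for IL1B in LNCaP. With single arrays left out, ribavirin differences in DU145 ran from -0.64 to 0.089 for CXCL1, -0.025 to 0.15 for CXCL5 and -0.10 to 0.72 for IL1B. In LNCaP they ran from -1.28 to 0.48 for CXCL1, -1.01 to 0.086 for CXCL3, -0.089 to 0.94 for CXCL5 and -0.033 to 0.51 for IL1B. For EOS against PGK in LNCaP they ran from -1.12 to 0.64 for CXCL1, -1.12 to 0.25 for CXCL2, -0.21 to 0.89 for CXCL3, -0.10 to 1.18 for CXCL8 and -0.19 to 1.02 for IL1B. Ribavirin was not compared on unscaled intensities, whose EOS arrays mix scales. The cause was not tested. The low signal of the dim genes over background limits all of these.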
